A study of Mus musculus with 6 samples.

Results

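Among gene symbols that stand for predicted genes, cDNA clones and pseudogenes, 6 separated the mouse lung tumours with an NSD3 mutant from those without it. A symbol was chosen when it read GM with digits, ended in RIK or held -PS, and when the lowest library of 1 group had at least 1 CPM (a symbol's count as a share of the library's total, per 1000000) and at least 4 times the highest CPM of the other group. The table held 24290 such symbols, of which 12885 had a count and 1975 reached 1 CPM in all 3 libraries of a group and so could have been chosen. GM47308, GM5921, GM44817 and GM2694 lay higher in the mutant tumours, and 2010007H06RIK and 4930426D05RIK lay lower. Because these same values chose the 6 genes, they are given here as a description, with no test.

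The tumours were lung squamous cell carcinoma biopsies from mice, with total RNA read by stranded sequencing. PSCN tumours express the T1242A mutant of NSD3, a histone methyltransferase, on top of an activated PI3K (PIK3CA H1047R), SOX2 overexpression and loss of CDKN2A and CDKN2B. PSC tumours, the controls, carry those same 3 alterations and have wild-type NSD3. Each group has 3 libraries. The age of the mice, the promoters or Cre that drive the alleles, and whether each biopsy came from a mouse of its own are not stated in the labels, and any p-value here covers the spread among these 6 libraries only, which may be technical. NSD3 itself stood at 773, 837 and 1904 CPM in PSCN libraries 1, 2 and 3, against 84.9, 105.1 and 103.3 CPM in PSC libraries 1, 2 and 3, so PSCN lay above PSC as labelled. Mutant and endogenous NSD3 are not told apart by this count.

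A processed pseudogene is a copy of a spliced messenger RNA written back into the genome, usually without introns, and ribosomal protein genes have many of them. Antisense and intergenic long noncoding RNAs often start beside a coding gene, from a shared or neighbouring promoter, and an annotated hairpin can lie inside a host transcript. A short read from such a gene can match its parent, host or overlapping partner equally well, so the count given to it depends on how the counting program divides such reads.

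4 sequences show how closely 3 of these genes are tied to a coding gene. GM5921 is a processed pseudogene (chromosome 9, minus strand, GRCm38) copied from RPS2, which encodes a protein of the small ribosomal subunit. Over its 882 bases it differed from the spliced RPS2 transcript at 18 positions, so 98.0% of bases were identical, and the longest identical run was 220 bases. The stretch with the most differences is positions 24 to 263 of GM5921, chr9:115438319-115438558, set beside the matching bases 190 to 429 of the RPS2 transcript, a plus-strand gene at chr17:24718116-24721929. Capitals mark the 9 bases that differ.
GM5921: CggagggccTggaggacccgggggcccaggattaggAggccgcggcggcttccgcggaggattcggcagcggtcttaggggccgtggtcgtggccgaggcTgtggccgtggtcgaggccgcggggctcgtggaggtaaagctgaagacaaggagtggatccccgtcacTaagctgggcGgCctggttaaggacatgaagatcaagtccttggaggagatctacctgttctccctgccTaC
RPS2: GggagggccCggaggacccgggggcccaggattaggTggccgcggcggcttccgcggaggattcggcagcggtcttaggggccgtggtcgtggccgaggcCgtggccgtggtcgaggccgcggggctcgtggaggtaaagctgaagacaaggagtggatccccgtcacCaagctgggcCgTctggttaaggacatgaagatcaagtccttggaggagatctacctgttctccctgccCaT
GM47308 is annotated as a microRNA gene (chr9:64726624-64726730, minus strand, GRCm38), and all of its 107 bases lie in a coding exon of RAB11A on the same strand. The whole of it was found letter for letter in the RAB11A transcript Rab11a-208, at bases 459 to 565, so it is shown with no capitals.
GM47308: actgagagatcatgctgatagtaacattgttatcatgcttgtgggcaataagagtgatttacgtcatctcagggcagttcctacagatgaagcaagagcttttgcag
COLCA2 and 2010007H06RIK start head to head on opposite strands. The RefSeq promoter of COLCA2 (GRCm38.p6, chr9:51278505-51278804, minus strand) holds the start of both, and capitals mark the 57 bases by which the annotated first exons overlap.
COLCA2 promoter: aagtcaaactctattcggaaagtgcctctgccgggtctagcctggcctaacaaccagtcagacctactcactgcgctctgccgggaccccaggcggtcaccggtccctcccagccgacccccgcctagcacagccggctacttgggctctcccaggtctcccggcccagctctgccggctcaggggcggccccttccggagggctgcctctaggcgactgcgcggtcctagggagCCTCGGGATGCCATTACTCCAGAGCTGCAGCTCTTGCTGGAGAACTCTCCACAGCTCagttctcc

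The levels of the 6 genes ran from 0 to 32.2 CPM over the libraries. The 4 genes chosen as higher in PSCN make 0.203% of the 1975 symbols that could have been chosen, and the 2 chosen as lower make 0.101%. Under the same rule 34 of all 15769 symbols of any kind that could have been chosen were higher, which is 0.216%, and 73 were lower, which is 0.463%. By kind, 4 of 1391 GM symbols, 2 of 353 RIK symbols and 0 of 231 -PS symbols met the rule. Groups that merely did not overlap were common, with PSCN above PSC in 435 of the 1975 symbols (22%) and below it in 345 (17.5%). Over all 15769 symbols of any kind the balance was the other way, with PSCN above in 1700 (10.8%) and below in 3075 (19.5%). Only a few of the 1975 GM, RIK and -PS symbols were far apart, since 9 higher and 21 lower ones were separated at least 2 times.

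PSC library 3 lay nearest to the PSCN libraries in 5 of the 6 genes, and PSC library 1 did so in GM47308. How often each library lay nearest over all symbols was not counted, so this is not read as a trait of these genes. Some margins were small. 4930426D05RIK had 231 counts in PSC library 3 and 242 in PSC library 2, and GM47308 had 2 counts in PSC library 1 and 1 in each of the others. Without PSC library 3 the rule would take 14 higher and 71 lower symbols. Without PSC library 1 it would take 7 higher and 9 lower, and without PSCN library 1 it would take 12 higher and 9 lower. The 6 genes meet the rule in each of these subsets by its construction.

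**Figure D1:**
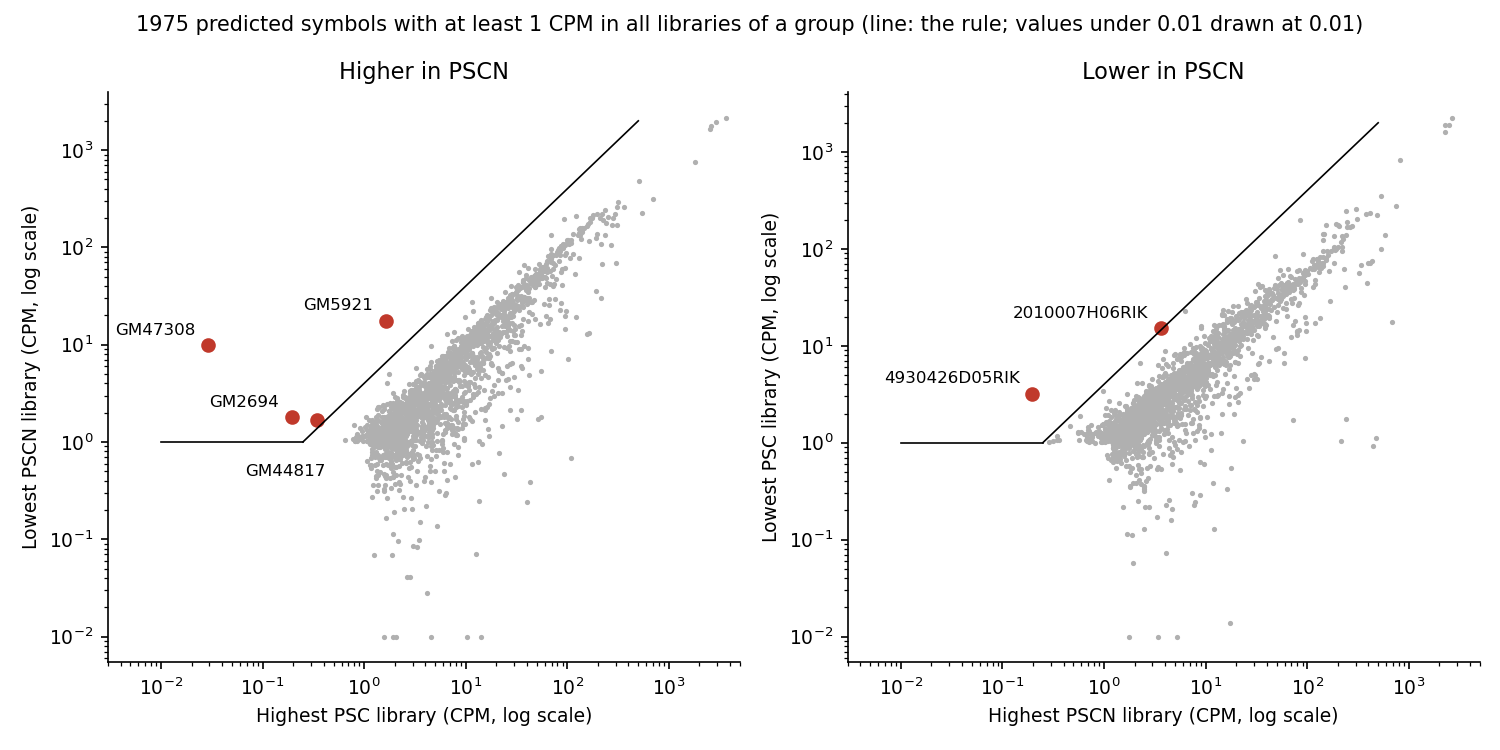
Each grey point is 1 of the 1975 symbols, with the highest library of the lower group on the x axis and the lowest library of the higher group on the y axis, both in CPM on log scales. The left panel shows PSCN above PSC and the right panel PSCN below PSC. The 6 chosen genes are red and lie on or above the line of the rule, which most points stay below.

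Just inside the separation of 4 times stood GM44817 at 4.84 times and, among the lower genes, 2010007H06RIK at 4.15 times. The nearest outside it were the processed pseudogenes GM12091 at 2.87 times and GM14165 at 2.41 times, both higher in PSCN. On the lower side the nearest were GM9847, a processed pseudogene, at 3.69 times and GM12474, an intergenic noncoding RNA, at 3.55 times. GM12648, another intergenic noncoding RNA, was separated 20.9 times with PSCN higher and missed the rule because its lowest PSCN library had 0.577 CPM. CYP2A21-PS, a pseudogene of the cytochrome P450 family, was separated 7.15 times with PSCN lower and missed because its lowest PSC library had 0.982 CPM.

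**Figure D2:**
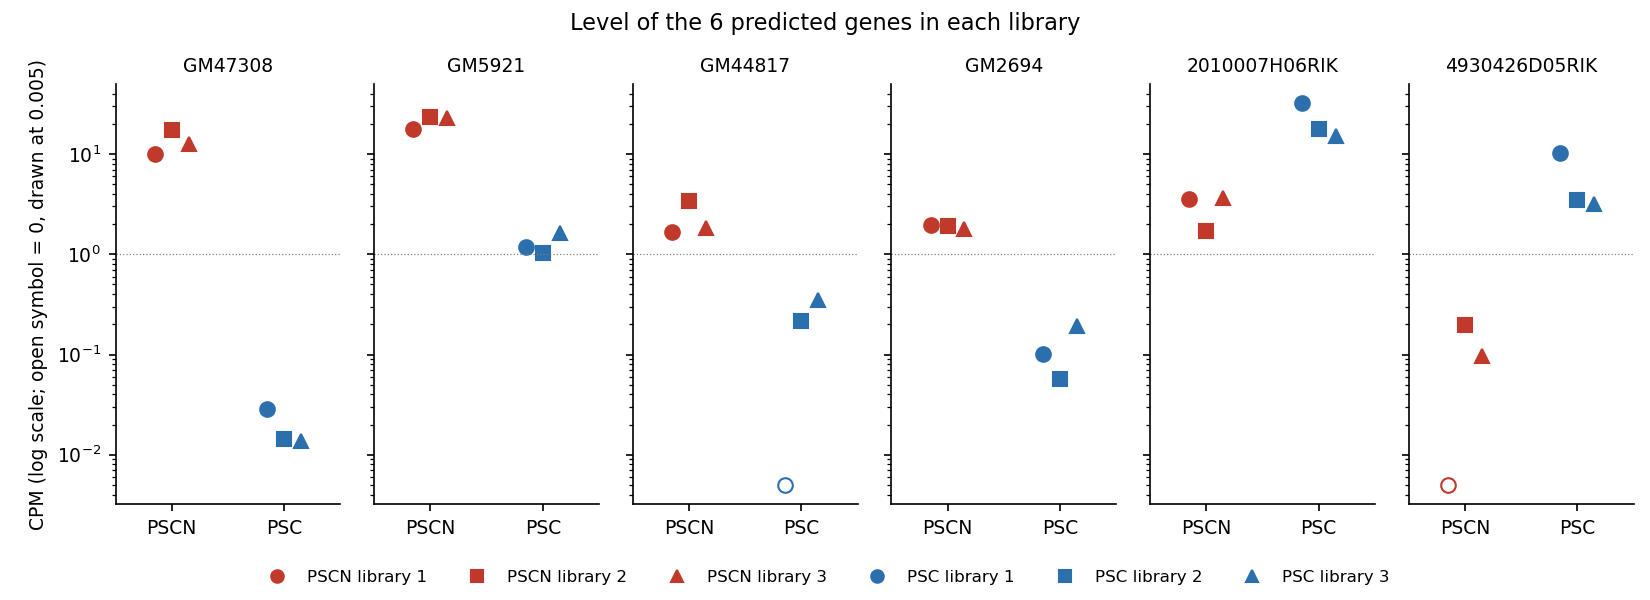
CPM of each of the 6 genes in each library on a log scale, PSCN in red and PSC in blue, with 1 symbol shape per library number. The dotted line is 1 CPM and open symbols are libraries with a count of 0. The gap is widest for GM47308, and only GM5921 and 2010007H06RIK stay above 1 CPM in their lower group.

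GM47308, the annotated microRNA inside RAB11A, was given counts in every PSCN library and almost none in any PSC library. This concerns the counts given to the symbol and not the presence of its sequence, since RAB11A was counted in all 6 libraries. GM47308 had 9.94, 17.4 and 12.5 CPM in PSCN libraries 1, 2 and 3, against 0.029, 0.014 and 0.014 CPM in PSC libraries 1, 2 and 3. Those levels rest on 724, 1232 and 910 counts in PSCN and on 2, 1 and 1 counts in PSC. Summed over groups, 2866 counts in PSCN stood against 4 in PSC, a ratio of 700.1 per total count with an exact 95% interval of 273 to 2571 that covers counting error only. The rule chose GM47308 on these same counts, so the interval is no test of a difference. It leaves out the spread among libraries and takes the estimated counts as if they were reads. How reads shared with RAB11A were divided lies outside it too. The fitted log2 fold change was 9.49 (SE 0.50).

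RAB11A, a small GTPase of recycling endosomes, did not show a difference of that size. Its levels were 109, 190 and 146 CPM in PSCN, against 67.0, 83.3 and 123 CPM in PSC, so the groups overlapped. Its log2 fold change was 0.86 (SE 0.33), which did not pass (adjusted p = 0.215, edgeR). GM47308 was 9.10, 9.14 and 8.57% of RAB11A in PSCN libraries, against 0.0429, 0.0172 and 0.0112% in PSC libraries. The share was thus nearly the same within PSCN although RAB11A itself differed between those libraries.

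Every 1 of the 32 windows of 76 bases (the read length) in GM47308 is also found in RAB11A, so no single read lying inside it can tell the 2 apart. Per kilobase of annotated exon, GM47308 stood at 92.9, 162 and 117 CPM in PSCN, above RAB11A at 36.5, 63.5 and 48.8 CPM in the same libraries. In PSC it stood at 0.269, 0.134 and 0.129 CPM per kilobase, far below RAB11A at 22.4, 27.8 and 41.3 CPM. With the pair summed to 1 row, an alternative added later, the log2 fold change was 0.98 (SE 0.33) and did not pass (adjusted p = 0.197, edgeR). Whether reads were divided differently between the 2 symbols in the 2 groups was not tested. The other 12 annotated microRNA symbols that could have been chosen were separated by less than 2 times, and the groups did not overlap in 3 of the 13, GM47308 among them.

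GM5921, the RPS2 pseudogene shown above, lay higher in all 3 PSCN libraries. It stood at 17.7, 23.3 and 22.7 CPM in PSCN, against 1.19, 1.03 and 1.63 CPM in PSC, and the libraries of each group were close to each other. The fitted log2 fold change was 4.19 (SE 0.30). In the authors' deposited table GM5921 held the first place by adjusted p, with a log2 fold change of 4.20, and GM47308 held place 4. Of the 807 windows of read length in GM5921, 244 (30.2%) also occur in the transcripts of other genes, among them 225 in RPS2-PS6, 192 in RPS2 and 167 in RPS2-PS10.

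RPS2 itself differed in the same direction as GM5921. It had 318, 493 and 432 CPM in PSCN, against 10.4, 7.14 and 28.0 CPM in PSC, a log2 fold change of 4.91 (SE 0.65) that did not pass (adjusted p = 0.137, edgeR). No other cytosolic ribosomal protein gene was near that. Of 77 such genes tested, 76 had log2 fold changes above 0, the median was 0.69, and after RPS2 the next was RPL30 at 1.71. The median over all 21201 genes tested was -0.01, and 0 of the 77 passed in edgeR. At an unadjusted p below 0.05 there were 65 higher and 0 lower of the 77, against 2010 higher and 2579 lower of all 21201 genes. DESeq2 called 42 higher and 0 lower, against 3.92% higher and 8.1% lower over all genes, and 49.1% of all genes had log2 fold changes above 0.

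The copies of RPS2 with the fewest base differences from GM5921 did not share that direction. RPS2-PS10 had 69.5, 80.0 and 84.6 CPM in PSCN, against 245, 196 and 301 CPM in PSC, a log2 fold change of -1.52 (SE 0.22, adjusted p = 0.137, edgeR). RPS2-PS13 had 169, 192 and 192 CPM in PSCN, against 232, 180 and 278 CPM in PSC, so its groups overlapped. GM5921 differs from RPS2-PS10 at 17 and from RPS2-PS13 at 19 of 882 bases, about as many as from RPS2. RPS2-PS6, the copy that shares the most windows of read length with GM5921 (225 of 807), was higher in PSCN like GM5921. It had 27.2, 34.8 and 34.9 CPM in PSCN, against 10.2, 7.63 and 11.5 CPM in PSC.

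In all, 51 symbols of the table, GM5921 and RPS2 among them, aligned to GM5921 with at least 85% identity over at least 700 bases, and 28 of them reached 1 CPM in a library. Of these 28, PSCN lay above PSC in 13 and below it in 2 (RPS2-PS10 and GM13204), and the groups overlapped in 13. Over all 15769 symbols that could have been chosen the shares were 10.8% above and 19.5% below. Among the 1975 GM, RIK and -PS symbols of these, the kind of most copies, they were 22% and 17.5%. The 28 were filtered otherwise, by 1 CPM in any library, and hold GM5921, which the rule chose for lying above. GM12091, which missed the rule at a separation of 2.87 times, is 1 of the 13 above. It had 5.04, 7.54 and 7.93 CPM in PSCN, against 1.54, 1.08 and 1.76 CPM in PSC. The summed level of the family differed far less than RPS2 or GM5921 did.

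That sum was 1032, 1343 and 1278 CPM in PSCN, against 850, 659 and 1031 CPM in PSC. PSCN library 1 and PSC library 3 were almost level in it. Without RPS2 the family summed to 713, 851 and 847 CPM in PSCN and to 840, 652 and 1003 CPM in PSC, so the groups overlapped. As 1 row, the family had a log2 fold change of 0.68 (SE 0.27), close to the median of the ribosomal protein genes, and it did not pass (adjusted p = 0.223, edgeR). The shares inside the family differed more.

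RPS2 took 30.8, 36.7 and 33.8% of the family's counts in PSCN, against 1.22, 1.08 and 2.72% in PSC. RPS2-PS10 took 6.73, 5.95 and 6.62% in PSCN, against 28.9, 29.8 and 29.2% in PSC. GM5921 took 1.72, 1.73 and 1.78% in PSCN, against 0.140, 0.157 and 0.158% in PSC. Within a group the shares of GM5921 and RPS2-PS10 varied little, while that of RPS2 in PSC was highest in library 3. Transcription of each copy cannot be told apart here from the way reads were divided among near-identical copies.

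**Figure D3:**
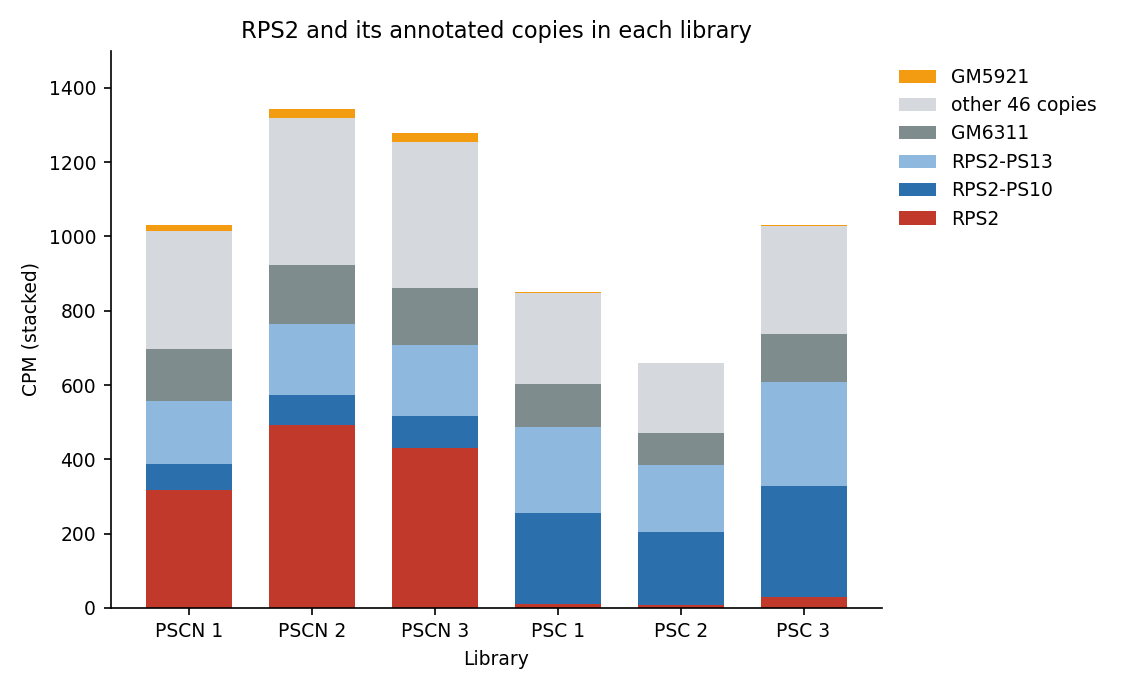
Stacked CPM of RPS2 and its annotated copies in each library, PSCN on the left. RPS2 (red) fills 30.8 to 36.7% of the bar in PSCN and 1.08 to 2.72% in PSC, RPS2-PS10 (dark blue) is larger in PSC, and GM5921 (orange) is the thin top of the PSCN bars.

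GM44817 is a 453-base stretch marked to be checked by experiment (chr7:43692644-43693096, plus strand), lying whole in an intron of KLK14 on the same strand. It stood at 1.68, 3.37 and 1.84 CPM in PSCN, against 0, 0.215 and 0.346 CPM in PSC, so PSCN library 2 was highest and PSC library 1 had no count. The fitted log2 fold change was 3.76 (SE 1.20). Its 378 windows of read length occur in no other annotated transcript, spliced KLK14 included.

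KLK14, a secreted serine protease of stratified epithelium, had the same order of libraries. It stood at 386, 1047 and 558 CPM in PSCN, against 6.71, 31.1 and 109.6 CPM in PSC (log2 fold change 3.89, SE 1.09, adjusted p = 0.190, edgeR). GM44817 was 0.435, 0.322 and 0.330% of KLK14 in PSCN, against 0, 0.692 and 0.315% in PSC, so the share did not separate the groups. The count of 0 in PSC library 1 stood beside 467 counts of KLK14.

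The neighbouring kallikrein proteases had fitted differences of the same sign, though KLK6, KLK8, KLK10, KLK11 and KLK13 overlapped between the groups. Of 10 genes from KLK5 to KLK14, a list set up after the values had been seen, 9 were tested. All 9 had log2 fold changes above 0, with 3.34 as their median, where 49.1% of all genes tested lay above 0. In edgeR 0 passed and 3 were higher at an unadjusted p below 0.05, against 2010 of all 21201 genes. DESeq2 called 3 higher, against 3.92% of all genes. KLK5 had no count. The 10 summed to 1271, 3783 and 1894 CPM in PSCN, against 47.6, 230 and 1049 CPM in PSC, where library 3 came close to PSCN library 1. Another stretch of this class, GM44814 in an intron of KLK13, overlapped between the groups, with 0.975, 3.07 and 0.302 CPM in PSCN, against 0.144, 0.359 and 1.33 CPM in PSC.

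Summed markers of squamous epithelium were also higher in PSCN. The 12 of 14 listed markers found in the table, such as KRT5 and TRP63, all reached 1 CPM and summed to 14212 to 35102 CPM in PSCN, against 440 to 10205 CPM in PSC. Other cell types' markers set libraries apart too. Club cell markers (4 of 5 in the table) summed to 983, 346 and 1064 CPM in PSCN, against 25370, 13135 and 1032 CPM in PSC, and the 10 ciliated cell markers to 44.6, 27.4 and 71.0 CPM in PSCN, against 1039, 477 and 43.8 CPM in PSC. In both lists PSC library 3 lay within the range of PSCN. The 5 alveolar type 2 markers summed to 1943 to 2675 CPM in PSCN and to 1419 to 12995 CPM in PSC, highest in library 2. The 3 fibroblast markers summed to 22447 CPM in PSCN library 1 and to 1120 and 705 CPM in PSCN libraries 2 and 3, against 1053 to 2663 CPM in PSC. The 2 endothelial markers overlapped, at 209 to 394 CPM in PSCN and 174 to 835 CPM in PSC, as did 4 immune markers, at 116 to 260 CPM in PSCN and 202 to 390 CPM in PSC. None of these lists had a marker at 0 in all libraries. Their part in the difference of GM44817 was not tested, and in bulk tissue more cells of a type cannot be told apart from more RNA per cell.

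GM2694 is a long intergenic noncoding RNA (chr8:87460469-87525554, plus strand) with 11 annotated transcripts. It stood at 1.95, 1.92 and 1.80 CPM in PSCN, against 0.101, 0.057 and 0.194 CPM in PSC, with hardly any spread in PSCN. These rest on 142, 136 and 131 counts in PSCN and on 7, 4 and 14 counts in PSC. The fitted log2 fold change was 4.13 (SE 0.55).

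CBLN1, a secreted organiser of synapses, lies on the other strand within the span of GM2694. 3 of the 11 GM2694 transcripts begin at base 87472812, with 202 bases between them and the first base of CBLN1, and no exon of GM2694 overlaps one of CBLN1. CBLN1 had 1.15, 1.86 and 1.75 CPM in PSCN, against 0.187, 0.186 and 0.318 CPM in PSC (log2 fold change 2.92, SE 0.43, adjusted p = 0.137, edgeR). Both members of the pair were therefore low in PSC and near 1 to 2 CPM in PSCN. Of the 6 other symbols annotated within 100 kb, none reached 1 CPM in every library, and 5 had no count at all.

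2010007H06RIK is annotated as antisense (chr9:51278513-51284210, plus strand) and is the most abundant of the 6 genes in PSC. It stood at 3.57, 1.72 and 3.64 CPM in PSCN, against 32.2, 17.8 and 15.1 CPM in PSC, where library 1 was highest. The fitted log2 fold change was -2.71 (SE 0.43). It is also the gene nearest to the limit of the rule, and with library sizes adjusted by TMM or by median of ratios it would fall outside it.

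Its partner COLCA2 (mouse gene named after a human colorectal cancer locus) shares 57 bases at the start, as shown above, and no window of read length is common to the 2. COLCA2 had 1.91, 0.775 and 1.51 CPM in PSCN, against 12.2, 6.38 and 4.07 CPM in PSC (log2 fold change -2.27, SE 0.54, adjusted p = 0.183, edgeR). The order of the PSC libraries was the same as for 2010007H06RIK, and in both genes PSCN library 2 was lowest. The gene beyond COLCA2 is POU2AF1, a transcriptional coactivator of B cells, with 2.98, 4.59 and 6.19 CPM in PSCN, against 30.6, 12.9 and 30.1 CPM in PSC (log2 fold change -2.28, SE 0.45, adjusted p = 0.171, edgeR).

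Summed markers of B cells were lower as well, while the immune list above overlapped. The 5 of 5 B cell markers listed (CD79A, CD79B, MS4A1, PAX5 and BLK) all reached 1 CPM in a library and summed to 5.96, 10.3 and 15.2 CPM in PSCN, against 97.4, 46.2 and 163 CPM in PSC. In PSC that sum was highest in library 3, and the club and ciliated sums given above were highest in library 1. Such an order of 3 libraries is a description only. Tuft cell markers, 12 of 12 in the table, of which 7 reached 1 CPM, overlapped at 33.8 to 81.3 CPM in PSCN and 33.7 to 50.8 CPM in PSC. POU2F3, the tuft cell regulator, had 2.32, 2.78 and 0.715 CPM in PSCN, against 0.776, 2.07 and 2.74 CPM in PSC. The B cell and tuft lists were set up after the values had been seen, and the part of any list in the difference of 2010007H06RIK was not tested.

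4930426D05RIK is antisense to KLHL14 on chromosome 18 (chr18:21651448-21656105, plus strand). It stood at 0, 0.197 and 0.096 CPM in PSCN, which is 0, 14 and 7 counts, against 10.3, 3.47 and 3.20 CPM in PSC. PSC library 1 had about 3 times the level of the other 2. The fitted log2 fold change was -5.66 (SE 1.26).

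KLHL14, a kelch-repeat protein, was lower as well. It had 0.124, 0.070 and 0 CPM in PSCN, against 7.17, 2.14 and 3.18 CPM in PSC (log2 fold change -5.80, SE 1.17, adjusted p = 0.171, edgeR). Of the 3001 exonic bases of 4930426D05RIK, 610 lie in exons of KLHL14, and 465 of its 3144 windows of read length occur in KLHL14 on the opposite strand. Whether the counting used strand is not stated in the labels, so part of either count may be reads of the other gene.

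**Figure D4:**
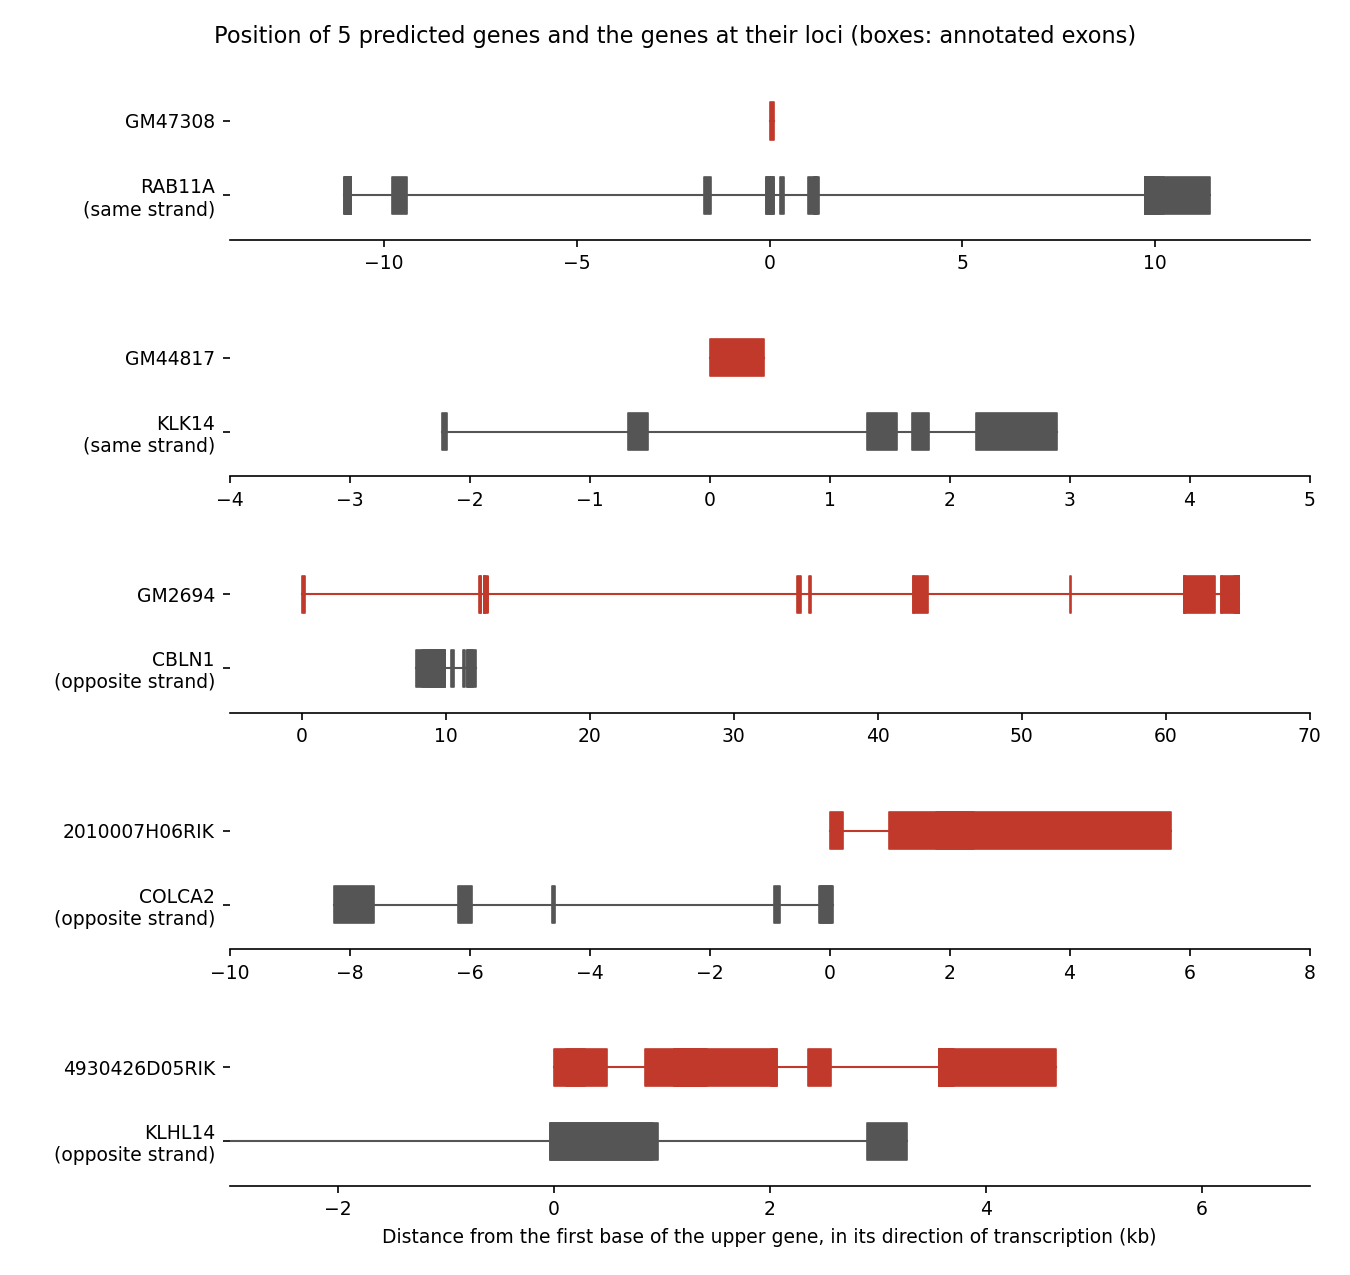
Exons (boxes) and spans (lines) of 5 of the 6 genes in red, each above the coding gene at its locus in grey, by distance in kilobases from the first base of the red gene. GM47308 lies in an exon, GM44817 in an intron, and the other 3 start beside or across the coding gene on the opposite strand. KLHL14 and GM2694 are long, and KLHL14 runs on past the left edge.

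**Figure D5:**
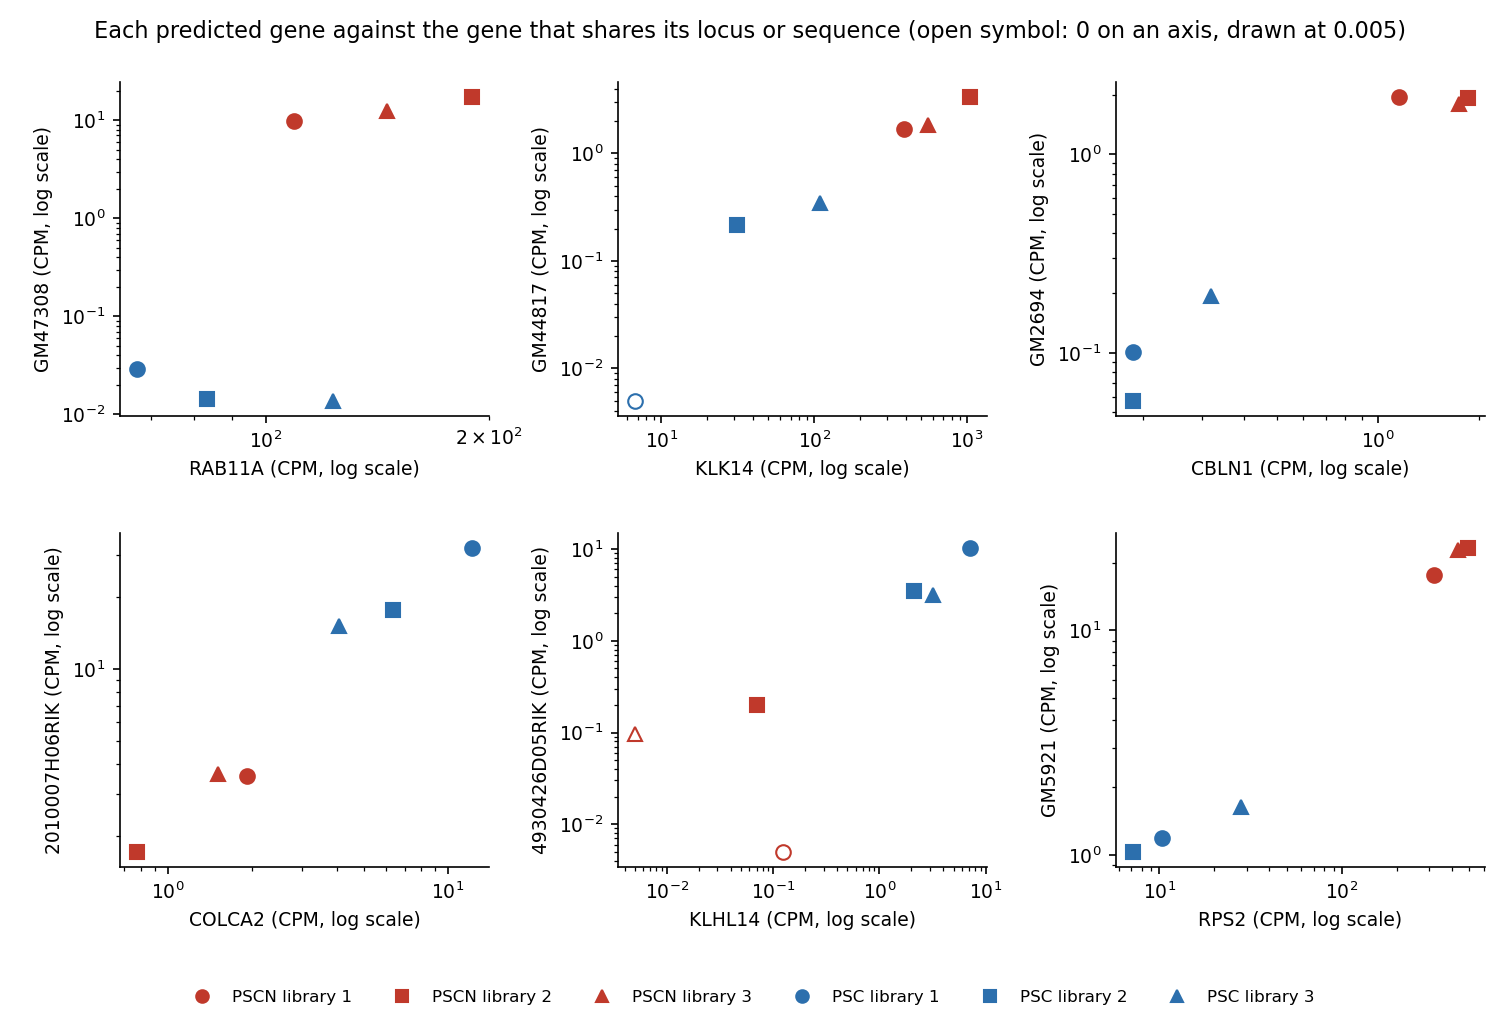
CPM of each of the 6 genes (y axis) against that of its partner (x axis) in the 6 libraries, both on log scales, PSCN in red and PSC in blue. Open symbols mark a value of 0 on an axis. GM47308 is the panel in which the groups part on the y axis while they overlap on the x axis, and in the other 5 panels they part on both.

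Each of the 6 genes has a coding gene at the same place or of nearly the same sequence, which is common among such symbols. A coding gene's span overlapped 5 of the 6, against 906 of the 1970 symbols that could have been chosen and have an annotation (46.0%). The remaining 1, GM5921, is a copy of a coding gene. Processed pseudogenes make 44.5% of those 1970 symbols and 1 of the 6 genes, and annotated microRNAs make 13 of the 1970 and 1 of the 6. On chromosome 9 lie 3 of the 6, against 103 of the 1970 (5.23%), at distant places. All 6 are on autosomes. By XIST, PSC libraries 2 and 3 were female and the other 4 libraries male, so sex is uneven between the groups. With sex as a covariate, the group difference of every gene rests on PSCN against PSC library 1, the only male PSC library. The rule had already set that library apart from PSCN, so the signs of the 6 log2 fold changes were fixed in advance. That of GM44817 was 10.4, with a count of 0 in that library.

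At least 1 window shared with another annotated gene was found in 4 of the 6, against 81.7% of 1965 symbols, and all windows were shared in 1 of the 6, GM47308, against 7.12%. In 5 of the 6 the partner gene's groups did not overlap and lay in the same direction, with RAB11A the exception, while over all symbols 10.8% lay above and 19.5% below. The partners share a locus or sequence with genes that the rule chose for separation, so their direction was not independent of that choice. These shares are a description and no test of an excess. For GM5921 the partner taken is the parent gene RPS2, and its copy RPS2-PS10, slightly closer in sequence, lay the other way. Across all genes tested, edgeR's quasi-likelihood test with Benjamini-Hochberg adjustment called 1 of 21201 higher in PSCN (0.00472%), which is GM47308 (adjusted p = 0.0274), and 0 lower (0%). At an unadjusted p below 0.05 there were 2010 higher and 2579 lower, and DESeq2 called 891 higher (3.92%) and 1839 lower (8.1%), all 6 genes among them. The call of GM47308 held without PSC library 3 and ended when any other single library was left out. The rule used this contrast, so nothing about the 6 genes is read from these calls.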

How the data were processed

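Total RNA of 6 tumour biopsies had been sequenced as stranded libraries with 76-base paired reads, per the labels' protocols. Trimmomatic, HISAT2, StringTie and DESeq2, and GRCm38 as the build, stand in the submitters' processing notes with no versions. Their handling of strand and of reads that match several genes is not given in the sources. The authors deposited estimated counts per symbol, already whole numbers, and a DESeq2 table with a mean normalized signal, log2 fold changes with standard errors, a Wald score, and p-values with adjusted p-values, per the file headers. The planned count test was run on these estimated counts. Columns were matched to samples by letter and number, which the labels do not spell out. Totals ran from 69563622 to 72807077 counts. In a library 3 counts are 0.0412 to 0.0431 CPM. Reads are not independent molecules, so counting intervals cover counting error only.

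CPM used column totals. Symbols were matched without regard to case to GENCODE M21 names (GRCm38), which found all 6 genes and 1970 of the 1975 symbols. Windows of 76 bases were searched in its transcripts. Copies were found with blastn 2.17.0+. The promoter sequence is from RefSeq (GRCm38.p6), and the other sequences are from GENCODE M21. Genes passing filterByExpr were tested with edgeR 4.0.16 (R 4.3.3, TMM, quasi-likelihood, Benjamini-Hochberg threshold 0.05), tested on simulated data. SE was taken as the absolute log2 fold change over the root of F. With 3 libraries a group, the smallest two-sided p of an exact permutation test is 0.1, and no such test was run.

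The genes described, the lists and the partner genes were chosen with earlier results of these data known. Named genes were the members, those next to each threshold, their hosts, parents and neighbours, and the listed genes. POU2F3, KLK5 to KLK13, GM44814 and RPS2-PS13 were chosen after their values were seen. Another marker is not reported here. Alternatives were other library sizes, thresholds of the rule, normalizations and filters, DESeq2 1.42.0, limma-voom (3.58.1) without quality weights, a replicate block, sex as a covariate, each library left out, and, added after seeing the data, copies summed.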

Additional observations from a re-analysis of the deposited data

How the results depend on the processing

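The count of 4 higher genes was unchanged with library sizes by TMM or median of ratios, and was 9 at a separation of 2 times and 2 at a minimum of 5 CPM. The count of 2 lower genes was 1 with TMM sizes, 1 with median-of-ratios sizes, 1 at a separation of 8 times and 1 at a minimum of 5 CPM, and was 21 at a separation of 2 times and 7 at a minimum of 0.5 CPM. Leaving out each library in turn gave 4 to 14 higher and 4 to 71 lower genes, the most without PSC library 3. Under this rule, leaving out a library can only add genes, so that direction was fixed in advance.

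The 1 edgeR call higher in PSCN became 891 with DESeq2, 3 when genes needed 1 CPM in 3 or more libraries, and 0 with limma-voom and with sex as a covariate. With copies summed there were 0 higher calls, but there GM47308, the 1 call, was part of the RAB11A row and could not be called. The 0 lower calls became 1839 with DESeq2. Leaving out each library gave 0 to 751 higher and 0 to 1195 lower calls, the highest without PSC library 3. With the replicate numbers as a block there were 0 higher and 0 lower calls. Same-numbered libraries showed little common deviation from their group means (correlations 0.19, -0.05 and 0.02). With 3 libraries a group this cannot settle whether the numbers pair them.

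Of the 6 genes, DESeq2 called 6 and edgeR without PSC library 3 called 4. Over the fits in which each was tested, log2 fold changes ran from 8.94 to 9.86 for GM47308, 4.04 to 4.45 for GM5921, 3.79 to 4.75 for GM2694, -3.27 to -2.32 for 2010007H06RIK and -6.75 to -4.91 for 4930426D05RIK. The rule, which set the libraries of the groups at least 4 times apart, fixed these signs in advance. GM44817 ran from 3.18 to 4.88 except with sex as a covariate, where it was 10.4, PSC library 1 being the only male PSC library and at 0. RPS2-PS13 ran from -0.33 to 0.033 with each library left out and reversed without PSC library 3. POU2F3, at 1.51 with sex as a covariate, ran from -0.20 to 0.67 with each library left out and reversed without PSCN library 2 and, at -0.15, without PSC library 1. The cause was not tested. Counting single genes over all alternatives, the 6 genes included, 436 values kept their direction and side of the threshold, 38 came to pass and 8, all of GM47308, no longer did. With no filter, all genes had a median of -0.10.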
